A study of Mus musculus with 64 samples.

Results

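Genes for 10 RNA-binding proteins that steer splicing and mRNA fate were followed through 64 single-cell transcriptomes of the mouse dentate gyrus. They were taken by symbol: Rbfox1, Rbfox2, Rbfox3, Elavl2, Elavl3, Elavl4, Nova1, Nova2, Ptbp2 and Qk, 10 of the 23313 gene symbols in the data. The Rbfox, Elavl and Nova genes form a neuron-type set of 8, Qk stands for the glia-type side, and Ptbp2 belongs to neither. The cells came from Dcx-dsRed mice aged 6 to 7 weeks, a transgenic strain whose dsRed fluorescence reports the doublecortin gene Dcx, a marker of newborn neurons. They were sorted for dsRed, captured singly on a microfluidic chip and sequenced as polyadenylated RNA, and the labels call each one an immature neuron. All 64 carry the same reporter and form 1 group with no treatment, stage or animal named, so they are 1 biological sample and no test or p-value is given. Levels are TPM (transcript abundance scaled to a fixed total per cell), which are per length and can be set side by side between genes.

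Alternative splicing differs widely between neurons and glia, and a small number of RNA-binding proteins set much of that difference. Rbfox proteins bind GCAUG in introns and regulate neuronal exons, and RBFOX3 is the antigen NeuN that marks most mature neurons. ELAVL2, ELAVL3 and ELAVL4 (HuB, HuC and HuD) bind AU-rich and U-rich RNA, stabilise mRNAs and are standard markers of cells committed to the neuronal fate. NOVA1 and NOVA2 bind clusters of UCAU and related letters in pre-mRNAs of synaptic proteins, and PTBP2 (nPTB) replaces PTBP1 as neurons form and holds back exons of the mature neuron. QKI, the product of Qk (quaking), binds ACUAAC and ACUAAU, is abundant in oligodendrocytes and astrocytes, and is required for myelination: the quaking mouse lacks compact myelin.

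The 3 Qk transcripts listed in the data differ at the 3′ end of the coding sequence, and this end decides which protein is made. They share 934 coding bases, or 311 residues, and then run into separate last exons on chromosome 17. By coding length in GENCODE M21 (GRCm38), NM_001159517 encodes QKI-5 with 341 residues, NM_001159516 encodes QKI-6 with 319 and NM_021881 encodes QKI-7 with 325. QKI-5 carries a nuclear localisation signal in its own tail, and QKI-6 and QKI-7 are found largely in the cytoplasm. The last 30 coding bases of each are shown because the split of the Qk signal described later rests on these ends, with the stop codon in capitals.
QKI-5 (minus strand, within chr17:10209615-10213371, spanning an intron): accgcagaccgagccgccaccggcaacTAA
QKI-6 (minus strand, within chr17:10214169-10216163, spanning an intron): ttaggtatggctttcccaacgaaaggcTAA
QKI-7 (minus strand, chr17:10215431-10215460): ccagtcatgcctgatatttcagcccatTGA

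QKI binds many of its target mRNAs after the stop codon, and matches in Cdkn1b and in Qk itself are shown with the motif in capitals. The letters ACTAAC and ACTAAT were searched on the transcript strand in the longest annotated 3′ UTR of 7 listed targets and of Qk, and no match overlapped another. Cdkn1b, a cell cycle inhibitor, had 1 ACTAAC in 1280 bases. Over all 3′ UTRs at least as long, 33.8% held either motif in the same number of bases. The 3′ UTR of the Qk transcript for QKI-5 had 5 matches in 7014 bases, where 91.2% of 204 genes with a 3′ UTR of that length had at least 1. Mbp had 1 of each motif in 3935 bases, where 73.0% of 3′ UTRs at least as long held either motif. Mag, Map1b and Nfasc had none of these letters. For the lengths of their 3′ UTRs these shares were 15.4%, 77.1% and 86.2%. A match is a description of the sequence and not a site of binding.
Cdkn1b (plus strand, chr6:134925258-134925287, from GENCODE M21): actgaaaattatACTAACttatttatgtta
Qk first ACTAAC (minus strand, chr17:10206538-10206567): taataccaacctACTAACtctggactatgt
Qk second ACTAAC (minus strand, chr17:10206455-10206484): ttgagttcctggACTAACactgaagaacgt

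The labelled cell type was checked against markers before the regulators were read. Dcx itself reached 1 TPM in 24 cells (37.5%), with a highest level of 212 TPM. It is 1 of 10 listed immature-neuron markers, and these went both ways. Stmn1 reached 1 TPM in 61 cells and Sox11 in 58. The rest of the list did so in 27 cells (Tubb2b) or fewer, with Sox4 in 11, Eomes in 6 and Neurod4 in 2. Clustering of the cells without the 10 regulators gave 3 clusters, named by marker lists: granule-lineage-like (20 cells), oligodendrocyte-like (33 cells) and astrocyte-like (11 cells). In this order Dcx reached 1 TPM in 6, 11 and 7 cells. The 10 immature-neuron markers summed to medians of 1760, 2619 and 1407 TPM. Stmn1 gave most of this sum, with medians of 1693, 2614 and 1267 TPM, so the list did not single out the granule-lineage-like cells. The 10 dentate granule markers (Prox1, Calb1 and others) summed to medians of 3610, 730 and 205 TPM. Pcp4 gave much of this sum, with medians of 2203, 210 and 0 TPM, and Calb1 had 562, 13.7 and 3.56 TPM. Prox1 differed little between the first pair, with medians of 23.4, 15.5 and 0 TPM. Dock10 alone of the 10 had a lower median in the granule-lineage-like (35.8 TPM) than in the oligodendrocyte-like cells (46.7 TPM). The summed TPM of 10 pan-neuronal markers (Snap25, Syt1, Rtn1 and others) had a median of 8666 in the granule-lineage-like, 2962 in the oligodendrocyte-like and 1060 in the astrocyte-like cells. The 10 oligodendrocyte markers (Mbp, Cnp and others) summed to medians of 109, 47287 and 458 TPM in the same order. A second marker programme, a marker score that reached a set percentile of another cluster, was flagged in 14 libraries. Of these, 12 were oligodendrocyte-like and 2 granule-lineage-like, and values without these 14 are given where they matter. Libraries without the flag could also hold such markers. Oligodendrocyte-like cells 23 and 52 had 5365 and 5828 TPM of pan-neuronal markers. Granule-lineage-like cell 3 had 13166 TPM of astrocyte markers, and cell 14 had 7051 TPM of oligodendrocyte markers. Leaving out the 14 therefore does not remove all mixed libraries. Of 8 microglial markers, 7 were in no cell. Depth, estimated from the values that 1 read gives, was 456150 to 3979147 reads per cell (median 1060899). The 21 deeper libraries stood apart from 43 shallower ones, and all of them had cell numbers from 1 to 24. Only cell 20 in that span was shallower, and all cells from 31 to 83 were shallower. Depth class and cell number therefore cannot be told apart.

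Qk was the most abundant of the 10 regulators and the only one of them found in all cells. It reached 1 TPM in 64 of 64 cells, ranging from 1.68 to 4615 TPM (median 767 TPM), and by its mean it ranked at position 94 among all genes. Of the summed TPM of the 10 genes, Qk held 76.7%, Rbfox1 6.94%, Ptbp2 5.01%, Elavl3 3.79%, Elavl4 2.89% and Rbfox3 2.43%, and each of the other 4 held less. Detection at 1 TPM or more in at least 50% of the cells was met by 6 of the 10 regulators, against 29.5% of the 15022 genes above 0 in any cell. Those 6 were Qk (64 cells), Rbfox1 (56), Elavl3 (48), Ptbp2 (45), Rbfox3 (40) and Nova1 (38). Rbfox2 and Elavl4 were each detected in 27 cells, and Elavl2 and Nova2 in 14 each. A single read was worth 0.104 to 1.05 TPM for Qk and 0.451 to 4.53 TPM for Rbfox1, so 1 TPM lies close to the value of 1 read and an undetected gene may be present at a low level.

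**Figure D1:**
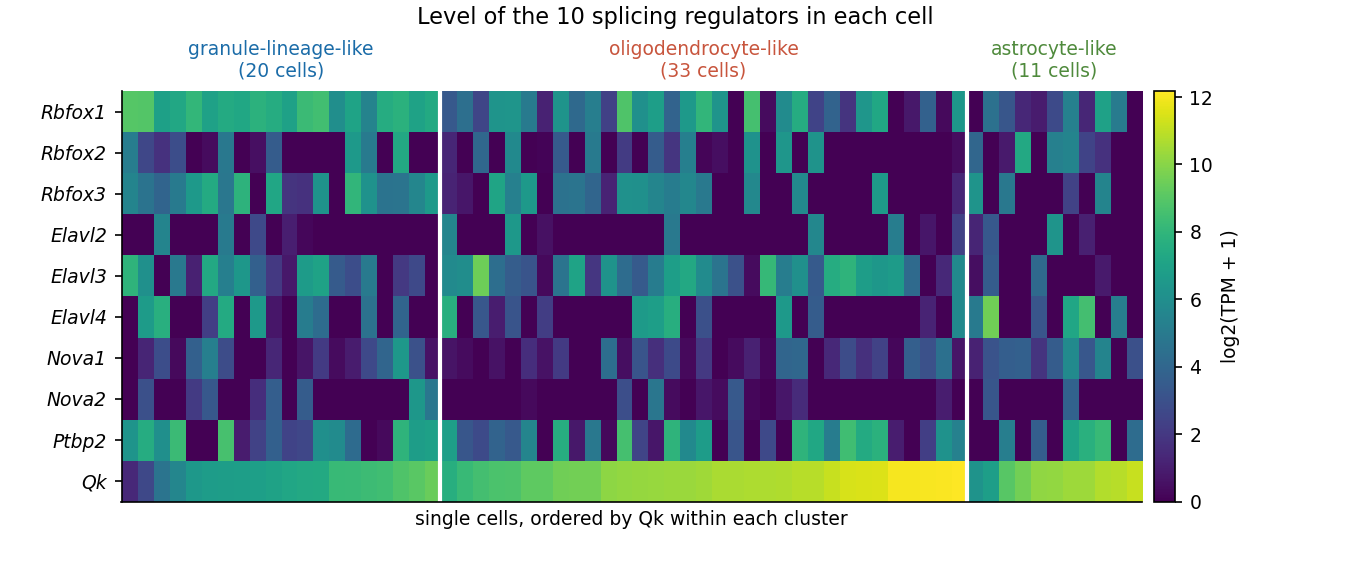
Level of each regulator as log2(TPM + 1) (colour) in each of the 64 cells (columns), grouped by cluster and ordered by Qk from low to high. Qk is present in every column, Rbfox1 in all 20 granule-lineage-like columns, and Elavl2 and Nova2 in 14 columns each.

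Among the Rbfox genes, Rbfox1 and Rbfox3 were highest in the granule-lineage-like cells, and Rbfox2 was under 1 TPM in most cells of the series. Over the 20 granule-lineage-like cells Rbfox1 spanned 42.5 to 497 TPM, with a median of 169 TPM. It ran from 0 to 455 TPM (median 29.9 TPM) in the 33 oligodendrocyte-like cells and from 0 to 125 TPM (median 5.68 TPM) in the 11 astrocyte-like cells. The ranges overlapped, but no granule-lineage-like cell lacked Rbfox1, while 5 oligodendrocyte-like and 3 astrocyte-like cells were under 1 TPM. On the scale of mean log2(TPM + 1), Rbfox1 was 2.94 higher in the granule-lineage-like than in the oligodendrocyte-like cells and 4.59 higher than in the astrocyte-like cells. Cells 8 and 54, both granule-lineage-like, had the highest Rbfox1 (497 and 474 TPM). Without the 14 libraries with a second marker programme, the difference from the oligodendrocyte-like cells was 3.29.

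Rbfox3, the gene for NeuN, was detected in 18 of 20 granule-lineage-like cells (0 to 254 TPM, median 37.8 TPM). The oligodendrocyte-like cells had it in 18 of 33 (0 to 135 TPM, median 1.34 TPM), and the astrocyte-like cells in 4 of 11 (0 to 76.9 TPM, median 0). The mean log2(TPM + 1) was 2.25 higher in the granule-lineage-like than in the oligodendrocyte-like cells and 3.20 higher than in the astrocyte-like cells. Rbfox2, which many tissues express, was detected in 9 of 20, 12 of 33 and 6 of 11 cells in the same order, with medians of 0.35, 0 and 2.32 TPM. Levels of at least 10 TPM occurred in 18 cells and of at least 100 TPM in 2, astrocyte-like cell 43 (160 TPM) and granule-lineage-like cell 55 (159 TPM). RefSeq places lncRNA genes over Rbfox1, Rbfox2 and Rbfox3, and whether their reads were kept apart by strand is not given in the sources used here. The differences of Rbfox2 between clusters were all under 1 log2 unit, but without the 14 libraries with a second programme they were 1.32 (granule-lineage-like minus oligodendrocyte-like) and 1.55 (astrocyte-like minus oligodendrocyte-like).

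Nearly all cells with Rbfox3 also had Rbfox1, which was itself found in 56 of the 64 cells. Of the 40 cells with Rbfox3, 39 had Rbfox1 (97.5%), and of the 24 without Rbfox3, 17 did (70.8%). Across the 64 cells the Spearman correlation of their log2(TPM + 1) was 0.61. Within clusters it was 0.72 in the 33 oligodendrocyte-like cells, -0.06 in the 20 granule-lineage-like cells and 0.21 in the 11 astrocyte-like cells. It was 0.65 in the deeper and 0.54 in the shallower libraries, and 0.59 without the 14 libraries with a second programme. All cells share one sort and one scaling to a fixed total, and the correlations describe these cells only.

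Elavl3 was highest in the oligodendrocyte-like cells over all libraries, an order that held in the shallower libraries and turned in the deeper ones. Of the 33 oligodendrocyte-like cells 30 had it, with levels of 0 to 725 TPM (median 34.2 TPM). Of the 20 granule-lineage-like cells 16 had it, from 0 to 237 TPM (median 11.3 TPM), and the astrocyte-like cells had it in 2 of 11, with a highest level of 16.6 TPM. The mean log2(TPM + 1) was 1.17 lower in the granule-lineage-like than in the oligodendrocyte-like cells and 2.95 higher than in the astrocyte-like cells. Without the 14 libraries with a second programme the first difference, granule-lineage-like minus oligodendrocyte-like, was -1.07. The granule-lineage-like and oligodendrocyte-like ranges overlapped over most of their length. Depth moved with the level in the granule-lineage-like cells: the median was 101 TPM in the 7 deeper and 6.31 TPM in the 13 shallower libraries. In the oligodendrocyte-like cells the medians were 33.5 TPM in the 13 deeper and 43.6 TPM in the 20 shallower libraries. The same difference was thus 0.70 within the deeper and -2.23 within the shallower libraries. The granule-lineage-like cells were the higher ones among the deeper libraries, and whether this goes with depth or with cell number cannot be told apart. Without granule-lineage-like cell 67, one of the shallower libraries, the difference was -0.98 over all the others.

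Of the 5 cells with the highest Elavl3, 4 were oligodendrocyte-like and none of these 4 was flagged for a second marker programme. They were cell 31 (725 TPM), cell 18 (283 TPM), cell 7 (237 TPM) and cell 70 (186 TPM). The pan-neuronal markers in these cells summed to 1331, 23.2, 142 and 105 TPM, and Rbfox3 was at 0 in all 4. Rbfox1 was at 4.76, 0.30, 2.58 and 13.7 TPM in them. Over the 33 oligodendrocyte-like cells the Spearman correlation with the summed pan-neuronal markers was 0.73 for Rbfox1 and -0.10 for Elavl3. In the 20 granule-lineage-like cells these correlations were -0.08 and 0.42.

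**Figure D2:**
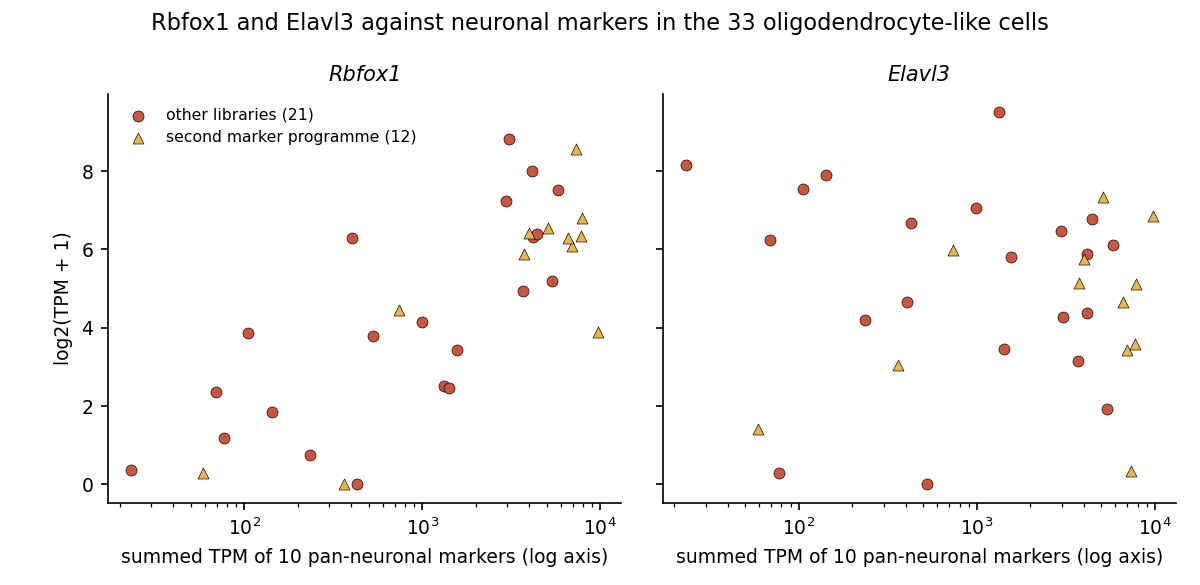
Level of Rbfox1 (left) and Elavl3 (right) as log2(TPM + 1) against the summed TPM of 10 pan-neuronal markers (log axis) in the 33 oligodendrocyte-like cells; triangles are the 12 libraries with a second marker programme. Rbfox1 climbs with the markers (Spearman 0.73), while Elavl3 reaches 283 TPM in the cell with 23.2 TPM of them (Spearman -0.10).

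Elavl4 was high in few cells, and the 2 highest were in the astrocyte-like cluster but low in astrocyte markers for it. The gene was found in 6 of 11 astrocyte-like cells (0 to 750 TPM, median 8.30 TPM), 9 of 20 granule-lineage-like cells (0 to 204 TPM, median 0.35 TPM) and 12 of 33 oligodendrocyte-like cells (0 to 207 TPM, median 0). Cells 68 and 47 (750 and 369 TPM) held 26.6% and 13.1% of all Elavl4 TPM in the data. Cell 68 had 3112 TPM of summed astrocyte markers and 7050 TPM of pan-neuronal markers, a sum that lies within the granule-lineage-like range. Cell 47 had 2278 TPM of astrocyte markers, the lowest of the cluster (median 18153 TPM), and 409 TPM of pan-neuronal markers. The mean log2(TPM + 1) was 1.74 higher in the astrocyte-like than in the oligodendrocyte-like cells and 1.05 higher than in the granule-lineage-like cells. Without cell 68 these differences were 1.14 and 0.44. Without the libraries with a second programme the latter, taken as granule-lineage-like minus astrocyte-like, was -0.77. Elavl2 was detected in 4 of 20, 6 of 33 and 4 of 11 cells (granule-lineage-like, oligodendrocyte-like, astrocyte-like), and its highest level was 87.9 TPM in cell 46. Elavl2 and Elavl4 shared cells: 11 of the 14 cells with Elavl2 had Elavl4 (78.6%), against 16 of the 50 without it (32%). All 11 of these cells were shallower libraries, and in the 21 deeper ones Elavl2 was detected in 1 cell, Elavl4 in 8 and both in none. The Spearman correlation of the pair was 0.57 in the shallower and 0.15 in the deeper libraries.

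Nova1 was low but found in nearly every astrocyte-like cell. It was detected in 10 of 11 astrocyte-like cells (0 to 55.0 TPM, median 8.72 TPM), 11 of 20 granule-lineage-like cells (0 to 89.2 TPM, median 1.41 TPM) and 17 of 33 oligodendrocyte-like cells (0 to 21.4 TPM, median 1.18 TPM). The mean log2(TPM + 1) was 1.60 higher in the astrocyte-like than in the oligodendrocyte-like cells and 1.22 higher than in the granule-lineage-like cells, the latter being 0.96 without cell 81. Its transcript is long (7154 bases), so a read was worth 0.0784 to 0.787 TPM, and 53 of 64 cells had a value above 0. Nova2 was detected in 8 of 20, 4 of 33 and 2 of 11 cells (granule-lineage-like, oligodendrocyte-like, astrocyte-like). Cell 3, with 85.5 TPM, held 38.1% of its TPM.

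Ptbp2 was found in all 3 clusters at overlapping levels. It was detected in 15 of 20 granule-lineage-like cells (0 to 397 TPM, median 38.2 TPM), 24 of 33 oligodendrocyte-like cells (0 to 388 TPM, median 13.8 TPM) and 6 of 11 astrocyte-like cells (0 to 296 TPM, median 11.5 TPM). The mean log2(TPM + 1) was 0.23 higher in the granule-lineage-like than in the oligodendrocyte-like cells and 1.06 higher than in the astrocyte-like cells. Without astrocyte-like cell 43 the latter was 0.74, and within the shallower libraries it was 2.21. No cluster had a range of its own.

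Qk was lowest in the granule-lineage-like cells. It ranged from 199 to 4615 TPM (median 1404 TPM) in the oligodendrocyte-like cells, from 75.7 to 2283 TPM (median 1161 TPM) in the astrocyte-like cells and from 1.68 to 665 TPM (median 139 TPM) in the 20 of granule-lineage type. The mean log2(TPM + 1) was 3.48 lower in the granule-lineage-like than in the oligodendrocyte-like cells and 2.72 lower than in the astrocyte-like cells. Between the astrocyte-like and the oligodendrocyte-like cells it differed by -0.77, and their ranges overlapped. Cells 8 and 54, the pair with the highest Rbfox1, had the lowest Qk (1.68 and 5.33 TPM), and 15 of the 20 granule-lineage-like cells were at 100 TPM or more.

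The 20 granule-lineage-like cells also differed in the markers of other cells they held. Within them Qk had a Spearman correlation of 0.47 with the summed astrocyte markers (185 to 13166 TPM), 0.03 with the summed oligodendrocyte markers (0.86 to 7051 TPM) and 0.03 with the pan-neuronal markers (4818 to 12635 TPM). Cell 65 had 306 TPM of Qk with 0.86 TPM of oligodendrocyte markers and 2551 TPM of astrocyte markers. Cell 77 had 113 TPM of Qk with 25.98 TPM and 436 TPM of them. The part of RNA from other cells in the Qk of these libraries was not tested. No doublet caller was run. Without the 2 granule-lineage-like libraries with a second programme the median of Qk there was 122 TPM.

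**Figure D3:**
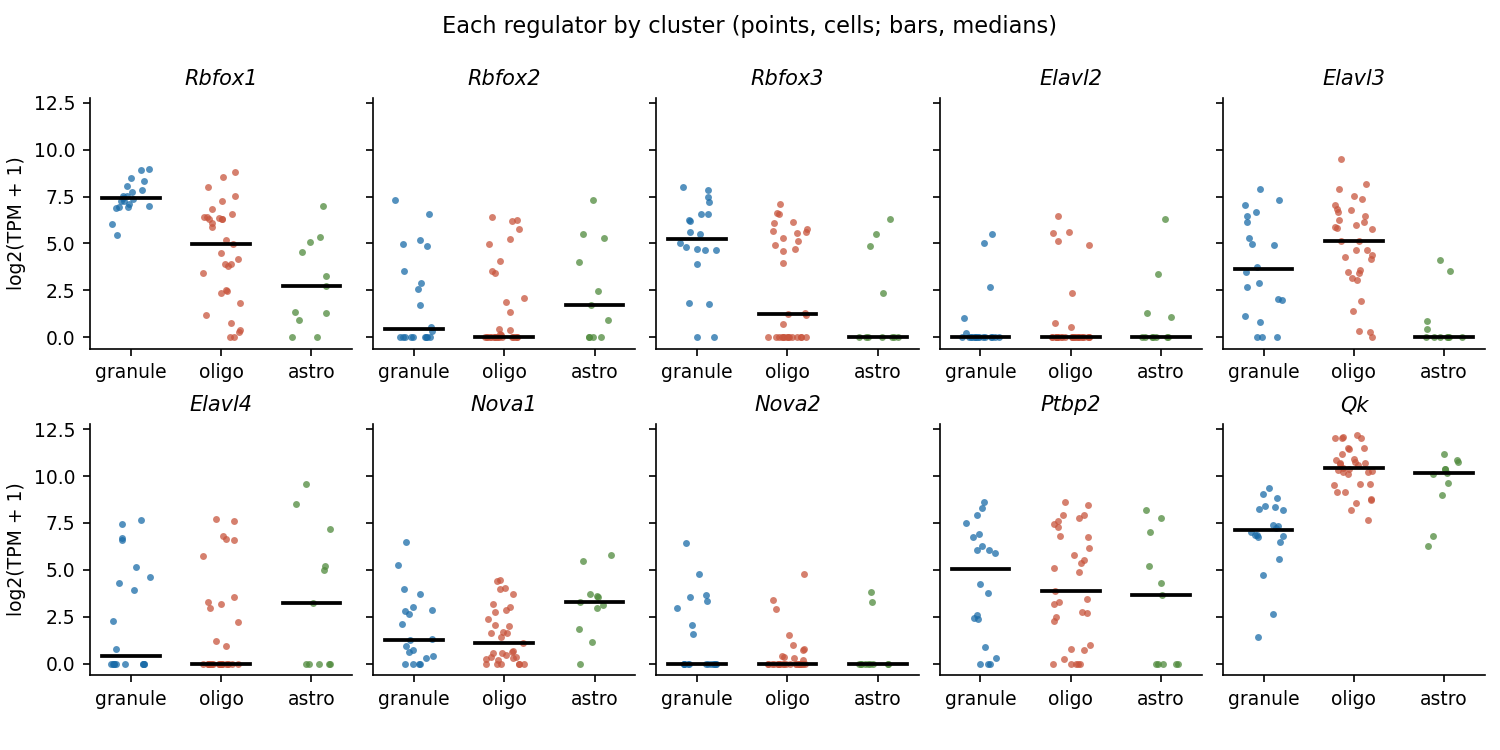
Level of each regulator as log2(TPM + 1) in the granule-lineage-like (20), oligodendrocyte-like (33) and astrocyte-like (11) cells; each point is a cell and the bar is the median. Rbfox1 and Rbfox3 are highest on the left, Qk lowest there, Elavl3 highest in the middle over all libraries and Nova1 highest on the right.

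The count of regulators past 1 log2 unit was read against all genes. Higher in granule-lineage-like than in oligodendrocyte-like cells were 2 of the 10 (Rbfox1 and Rbfox3), where 19.9% of the 10732 genes in at least 10% of the cells were. Lower were 2 (Elavl3 and Qk), where 12.2% of genes were. Against the astrocyte-like cells 4 were higher in the granule-lineage-like ones (Rbfox1, Rbfox3, Elavl3 and Ptbp2), where 33% of all genes were. Another 3 were lower (Elavl4, Nova1 and Qk), where 10.7% of genes were. Of these, Ptbp2, Elavl4 and Nova1 fell under 1 log2 unit when 1 cell was left out. Their differences were then 0.74 (without cell 43), -0.44 (without cell 68) and -0.96 (without cell 81). Against the oligodendrocyte-like cells, Elavl3 did so too (-0.98 without cell 67). In the astrocyte-like cells 2 were higher than in the oligodendrocyte-like ones (Elavl4 and Nova1; all genes 10.4%) and 2 were lower (Rbfox1 and Elavl3; all genes 26.7%). Over the 8 neuron-type genes the median difference between granule-lineage-like and oligodendrocyte-like cells was 0.57, beside 0.17 over all genes. Against the astrocyte-like cells the 8 had a median difference of 0.20, beside 0.45 over all genes.

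Set against each other within a cell, Qk exceeded the 8 neuron-type genes together in most glia-like cells and was below them in most granule-lineage-like cells. The summed neuron-type TPM was above Qk in 18 of 64 cells (28.1%, exact Clopper-Pearson 95% interval 17.6% to 40.8%, counting error only). These were 14 of 20 granule-lineage-like, 2 of 33 oligodendrocyte-like and 2 of 11 astrocyte-like cells. The log2 ratio of the sum to Qk (pseudocount 1) had a median of 1.53 (-1.98 to 8.25) in the granule-lineage-like, -2.54 (-7.54 to 1.02) in the oligodendrocyte-like and -3.002 (-8.21 to 2.84) in the astrocyte-like cells. The ranges overlapped between all 3 clusters. Without the 14 libraries with a second programme the sum was above Qk in 18 of 50 cells (36%). Taken as a mean over the 8 genes, the neuron-type level was above Qk in 4.69% of the 64 cells, so the count depends on summing 8 genes against 1.

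**Figure D4:**
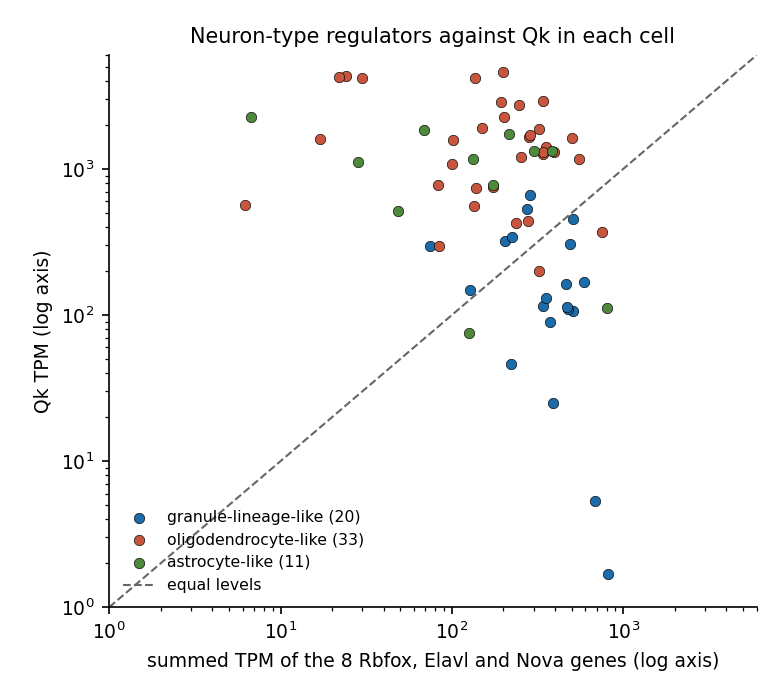
Qk TPM against the summed TPM of the 8 neuron-type genes in each cell, both on log axes; the dashed line marks equal levels. Of the 20 granule-lineage-like cells 14 lie below the line, and of the 33 oligodendrocyte-like cells 31 lie above it.

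Neuron-type genes and Qk were detected together in every cell. Each of the 64 cells had at least 1 neuron-type gene at 1 TPM or more beside Qk, with a median of 4 and at most 7 of the 8. The medians were 5 in the granule-lineage-like and 4 in both glia-like clusters. Since Qk was in all cells, the number with both genes equals the number with the neuron-type gene at this threshold. At 10 TPM or more, Qk was in 62 cells, so the shared counts again lie close to those of the neuron-type gene. Qk was found in 44 of the 46 cells with Rbfox1 and in 36 of 38 with Elavl3. It was in 32 of 34 with Rbfox3 and in 19 of 20 with Elavl4. At 100 TPM or more, Qk was in 58 cells and Rbfox1 in 25, and 20 cells had both: 13 granule-lineage-like, 6 oligodendrocyte-like and 1 astrocyte-like. At that level Elavl3 was in 13 cells, and 12 of them had Qk, of which 9 were oligodendrocyte-like, 3 granule-lineage-like and none astrocyte-like. Of the 12, 10 were not flagged for a second marker programme.

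Across the 64 cells the most negative correlations of Qk among the regulators were those with Rbfox1 and Rbfox3. The Spearman correlation with Qk was -0.43 for Rbfox1 and -0.42 for Rbfox3, and lay between -0.22 (Elavl4) and 0.16 (Nova1) for the other 7. Within clusters the correlation of Qk with Rbfox1 was -0.27 in the granule-lineage-like, -0.11 in the oligodendrocyte-like and 0.19 in the astrocyte-like cells. Qk had a correlation of 0.61 with the summed oligodendrocyte markers and of -0.61 with the pan-neuronal markers over the 64 cells. The correlation of Qk with depth was 0.14.

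The genes most like each regulator over the 64 cells, among 4427 genes detected in at least 50% of the cells were ranked by Spearman correlation. For Rbfox1 they included Syp (0.80, a synaptic vesicle protein), Rogdi (0.80), Pcp4 (0.80) and Hpca (0.79, a calcium sensor of hippocampal neurons). For Rbfox3 they were Clvs2 (0.76), Dpp6 (0.65, a potassium channel subunit), Thy1 (0.65), Map2k1 (0.64) and Igfbp5 (0.64). For Qk they were Septin7 (0.75), Cmtm5 (0.70), Cnp (0.69, a myelin enzyme), Lpar1 (0.67) and Tspan2 (0.66), the last pair known in oligodendrocytes. For Elavl3 they were Dpysl2 (0.58), Mbp (0.54, myelin basic protein), Aplp1 (0.54), Ddrgk1 (0.54) and Gsn (0.54). Nova1 was nearest to Rap1b (0.49), Alcam (0.48), Rgcc (0.45), Slc1a2 (0.44, the astrocytic glutamate transporter) and Etv5 (0.43), and Ptbp2 to Pfkm (0.50), Btf3l4 (0.49), Mettl23 (0.46), Dstyk (0.46) and Apex1 (0.42). The summed neuron-type level was nearest to Map1b (0.66), Aprt (0.65), Mef2c (0.64), Nsg2 (0.60) and Bex2 (0.60). A correlation of 0.5 or more was reached with Rbfox1 by 304 genes (6.87%), with Rbfox3 by 156 (3.52%), with Qk by 80 (1.81%), with Elavl3 by 12 and with Nova1 and Ptbp2 by none. The values are Spearman correlations over cells that share one sort.

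Most of the Qk signal was assigned to the transcript for QKI-6, whose coding end is printed above. It held 80.7% of the summed Qk TPM, and the transcripts for QKI-5 and QKI-7 held 9.62% and 9.65%. QKI-6 was the leading transcript in 57 of 64 cells, namely in 33 of 33 oligodendrocyte-like, 14 of 20 granule-lineage-like and 10 of 11 astrocyte-like cells. QKI-5 led in 5 cells and QKI-7 in 2. The share of QKI-5 was 15.7% in the granule-lineage-like, 8.56% in the oligodendrocyte-like and 12.6% in the astrocyte-like cells, and that of QKI-7 was 9.30%, 10.3% and 6.63%. Cell 47 gave 676 TPM of QKI-5, and without it the astrocyte-like share was 7.93%, below that of the oligodendrocyte-like cells. In single granule-lineage-like cells the QKI-5 share ran from 0 to 99.7% (median 14.3%), where in oligodendrocyte-like cells it ran from 0 to 29.3% (median 6.29%). Cells 8 and 54, with the lowest Qk, had 80.4% and 77.9% of it in QKI-5, at 1.35 and 4.15 TPM. Without the libraries with a second programme the QKI-5 share was 19.6% in the granule-lineage-like and 9.56% in the oligodendrocyte-like cells. The estimate divides shared reads between transcripts by their ends, and at low Qk it rests on few reads.

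**Figure D5:**
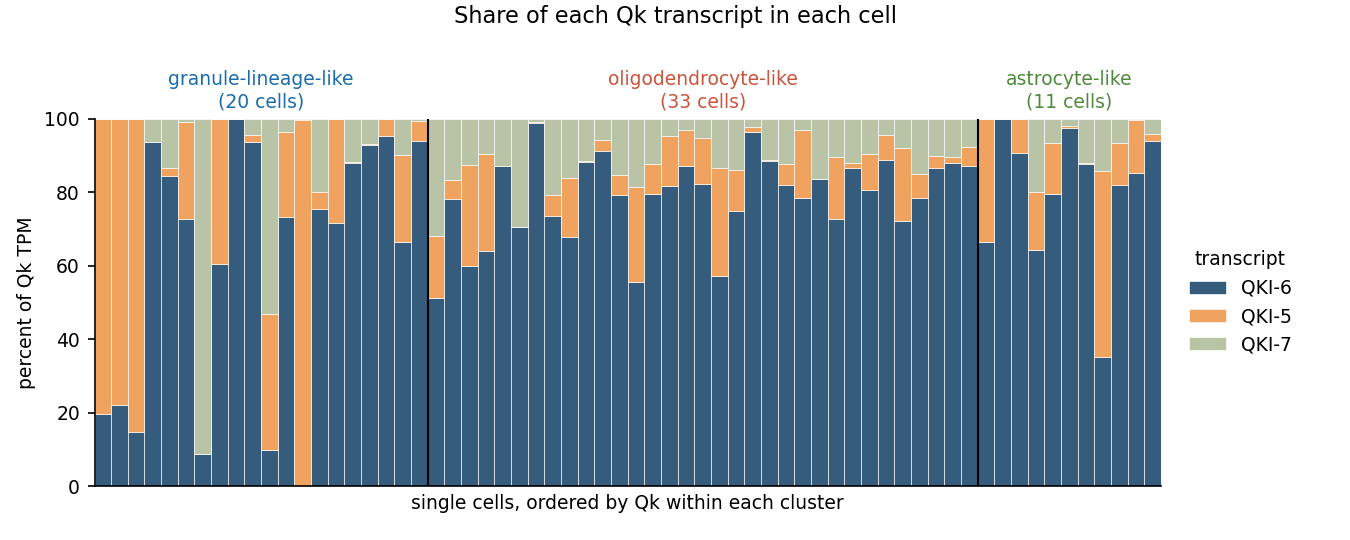
Percent of a cell's Qk TPM assigned to the transcripts for QKI-6, QKI-5 and QKI-7 (stacked bars, 1 per cell, ordered by Qk within each cluster). QKI-6 leads in all 33 oligodendrocyte-like cells, while QKI-5 leads in 4 and QKI-7 in 2 of the 20 granule-lineage-like cells.

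Rbfox1, Rbfox2 and Rbfox3 also had a leading transcript each. For Rbfox1, NM_183188 (1407 bases, 417 residues) held 70.3% and NM_021477 (3061 bases, 396 residues) 29.7% of the summed TPM, and the first led in 46 of the 56 cells with the gene. For Rbfox2, NM_001110830 (1694 bases, 377 residues) held 72.2%. For Rbfox3, the transcript of 1542 bases (313 residues) held 91.1% and led in 34 of the 40 cells with the gene. Elavl3, Nova1, Nova2 and Ptbp2 were listed with 1 transcript each. Exons within these transcripts were not measured apart.

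The annotated promoters differed in base composition among the regulators. RefSeq (GRCm38.p6) gives a window of 300 bases, 250 before and 50 after the start, for 9 of the 10 genes. The dinucleotide CG, which reads the same on both strands, was in 94.6% of all 32851 windows, with a median of 7 per window and quartiles of 3 and 20. Qk had 57 CG, more than 99.8% of windows had, Ptbp2 had 36 and Elavl3 29, while Rbfox3 had 4 and the 2 windows of Rbfox1 had 3 and 7. Nova2 had 17, Nova1 14, and the windows of Elavl2 and Elavl4 ranged from 10 to 27 and from 4 to 23. The windows of Qk, Elavl3 and Rbfox3 are shown for the gene found in every cell and for 2 neuron-type genes with many and with few CG, with CG in capitals.
Qk (minus strand, chr17:10319312-10319611): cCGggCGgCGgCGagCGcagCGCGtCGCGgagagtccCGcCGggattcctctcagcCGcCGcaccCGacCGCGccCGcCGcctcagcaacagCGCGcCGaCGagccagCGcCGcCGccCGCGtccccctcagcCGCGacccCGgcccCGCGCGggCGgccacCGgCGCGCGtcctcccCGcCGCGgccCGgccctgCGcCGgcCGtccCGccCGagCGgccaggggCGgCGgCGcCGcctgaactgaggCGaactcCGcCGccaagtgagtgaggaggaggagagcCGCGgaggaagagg
Elavl3 (minus strand, chr9:22051974-22052273): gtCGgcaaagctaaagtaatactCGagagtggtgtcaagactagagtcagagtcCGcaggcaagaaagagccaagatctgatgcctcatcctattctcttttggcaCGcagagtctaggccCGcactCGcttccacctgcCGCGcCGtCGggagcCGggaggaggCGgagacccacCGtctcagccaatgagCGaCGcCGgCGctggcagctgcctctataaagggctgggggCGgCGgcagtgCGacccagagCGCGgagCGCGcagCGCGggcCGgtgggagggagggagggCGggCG
Rbfox3 (minus strand, chr11:118760992-118761291): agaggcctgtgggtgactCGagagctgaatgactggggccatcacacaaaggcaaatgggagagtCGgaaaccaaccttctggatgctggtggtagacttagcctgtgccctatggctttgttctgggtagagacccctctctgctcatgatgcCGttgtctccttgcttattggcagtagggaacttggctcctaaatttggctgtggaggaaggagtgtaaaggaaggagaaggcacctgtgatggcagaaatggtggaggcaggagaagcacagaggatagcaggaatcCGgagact

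Related splicing regulators gave the regulators above a frame. Of the 6 Celf genes, which regulate splicing and mRNA decay in neurons and muscle, 5 were higher by 1 log2 unit or more in the granule-lineage-like than in the oligodendrocyte-like cells and 5 were higher than in the astrocyte-like cells, where 19.9% and 33% of all genes were. Celf2 had medians of 225, 65.0 and 22.2 TPM and Celf4 of 109, 47.6 and 41.6 TPM in the granule-lineage-like, oligodendrocyte-like and astrocyte-like cells. Celf1 had medians of 47.3, 21.9 and 2.60 TPM. Of the 3 muscleblind genes, Mbnl2 had medians of 101, 147 and 4.44 TPM, so that it was 4.41 log2 units lower in the astrocyte-like than in the oligodendrocyte-like cells. Mbnl1 had medians of 28.4, 79.6 and 36.96 TPM, and Mbnl3 was in no cell.

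Msi2, an RNA-binding protein of neural stem cells, was detected in 11 of 11 astrocyte-like cells with a median of 56.4 TPM, beside 23.6 TPM in the granule-lineage-like and 11.1 TPM in the oligodendrocyte-like cells. Ptbp1, which Ptbp2 replaces in neurons, was detected in 19 cells: 6 granule-lineage-like, 8 oligodendrocyte-like and 5 astrocyte-like. Its mean log2(TPM + 1) was 1.50 higher in the astrocyte-like than in the oligodendrocyte-like cells. Srrm4, which drives neuronal microexons, was detected in 11 of 20 granule-lineage-like, 6 of 33 oligodendrocyte-like and 2 of 11 astrocyte-like cells, never above 26.6 TPM. Khdrbs2 was the only 1 of 3 Khdrbs genes past 1 log2 unit between granule-lineage-like and oligodendrocyte-like cells (1.31 higher in the former). Elavl1 (HuR), the widely expressed relative of the neuronal Elavl genes, had medians of 34.2, 7.56 and 46.2 TPM in the granule-lineage-like, oligodendrocyte-like and astrocyte-like cells. Over the 16 tested regulators of these lists, 7 were higher and none lower in the granule-lineage-like than in the oligodendrocyte-like cells, and 9 were higher and 2 lower than in the astrocyte-like cells. Over all genes 19.9% were higher and 12.2% lower in the first comparison, and 33% and 10.7% in the second. Their median differences were 0.58 and 1.25, beside 0.17 and 0.45 over all genes.

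Transcripts known to be bound by these proteins were counted by list, as levels of the mRNA and not as splicing. Of 7 QKI targets, 4 were lower (Mbp, Mag and Nfasc among them) and 2 higher (Map1b and Hnrnpa1) in the granule-lineage-like than in the oligodendrocyte-like cells, where 12.2% of all genes were lower and 19.9% higher. Mbp and Mag are myelin genes that also served to name the oligodendrocyte-like cluster, so their difference repeats that choice. Cdkn1b differed by 0.13, with medians of 30.3 and 30.04 TPM, and had a median of 49.9 TPM in the astrocyte-like cells. Nfasc, which forms the axoglial junction and the node, had medians of 1.52, 107 and 1.79 TPM in the granule-lineage-like, oligodendrocyte-like and astrocyte-like cells. Of the 8 tested NOVA targets 4 were higher and 1 lower in the granule-lineage-like than in the oligodendrocyte-like cells, of 5 ELAVL targets 3 and 1, and of 5 RBFOX targets 3 and none, with Snap25 also among the pan-neuronal markers. These counts also stand beside 19.9% higher and 12.2% lower over all genes. Dlg4 (PSD-95), whose exon PTBP2 holds back, was detected in 11 of 20, 8 of 33 and 2 of 11 cells (granule-lineage-like, oligodendrocyte-like, astrocyte-like). Mapt, the tau gene and an ELAVL target, had medians of 44.4, 150 and 23.3 TPM and was detected in 33 of 33 oligodendrocyte-like cells.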

How the data were processed

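Polyadenylated RNA of 64 single cells was measured in 1 group. The submitters' processing notes name Bowtie2, RSEM and mm9, without versions. Per the file headers the deposited values are expected counts. Since each cell's total lay between 999999.47 and 1000000.52, the values deposited by the authors were read as TPM, and no count model was fitted. TPM of 30970 transcripts were summed per symbol, 1037 transcripts without a symbol (0.172% to 0.735% of TPM) were dropped, and 48 damaged symbols were restored by accession. Pearson correlations between pairs of cells were 0.399 to 0.674, so no library repeated another.

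Detection was 1 TPM or more and the pseudocount was 1. Ward clustering used 10 principal components of the 1000 most variable genes in at least 10% of cells, without the 10 regulators. The silhouette was highest with 3 clusters (0.262), by a small margin: it was 0.248 to 0.252 with 2, 4, 5 or 6. A second programme was a marker score at the 25th percentile of another cluster or higher. Depth was estimated from the value of 1 read, and the estimate was tested on simulated data. Named genes are the regulators, listed related genes and targets found in at least 25% of cells (Mbnl3, below that, completes its family), and the 5 genes nearest to each regulator. A few genes that this rule names are not reported here. The regulators and lists were chosen with earlier results of these data known. Sequences are from GENCODE M21 and RefSeq (GRCm38), a later build than mm9. Python 3.11.15, numpy 2.4.6, pandas 2.3.3, scipy 1.17.1, scikit-learn 1.9.0 and matplotlib 3.10.9 were used.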

Additional observations from a re-analysis of the deposited data

How the results depend on the processing

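The share of cells with the neuron-type sum above Qk was 4.6875% when the mean over the 8 genes replaced the sum. With a pseudocount of 0.1 in place of 1, 2074 genes were lower in granule-lineage-like than in oligodendrocyte-like cells and 4361 lower in astrocyte-like than in oligodendrocyte-like cells. Of the other alternative values of the main comparisons, 96 stayed within their spread, interval or 1.5 times, and the astrocyte-like share of QKI-5 was 7.93% to 14.98% with each cell left out in turn. For single genes 178 values stayed, 38 moved and 1 turned: Elavl3 in granule-lineage-like minus oligodendrocyte-like cells was 0.70 in the deeper libraries. The differences between clusters without second-programme libraries, by depth, with each cell left out, with a pseudocount of 0.1, and the Qk transcript shares by subset were added after seeing the data. With the 500 most variable genes no cluster was named granule-lineage-like, so the ratio there has no value. No paired analysis was possible because the cells form 1 group. Each cluster is part of 1 biological sample. With a median of 1.65 TPM for 1 read of Rbfox1, a single read would be enough for its detection in many libraries. Of the 56 cells with Rbfox1, 46 had 10 TPM or more. The 11 astrocyte-like cells include 1 deeper library. Within the shallower libraries Rbfox1 had medians of 166, 43.8 and 3.605 TPM and the log2 ratio of the neuron-type sum to Qk had medians of 1.56, -2.48 and -2.63 (granule-lineage-like, oligodendrocyte-like, astrocyte-like).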
